A study of Mus musculus with 20 samples.

Results

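Npr2, Serpine2, Acpp and Gm4756 are 4 of the 55573 genes counted in the liver of male Titan mice and unselected control mice. They were chosen by their change with age in Titan liver: each lay at 19-21 weeks outside the range seen at 11 weeks. All 4 passed the filter on low counts, Acpp only through the Titan mice, as did 13784 genes in all. Titan is the non-inbred line DU6, bred long-term for high body mass, and the controls are unselected mice of the line FZTDU. The 4 groups were control mice and Titan mice at 11 weeks and at 19-21 weeks, with 5 mice in each. The paper refers to the Titan and control mice of its expression comparison as fed standard breeding chow, but its RNA sequencing methods and the labels give no diet. The Titan line carries many selected loci at once, so a difference between the lines cannot be assigned to a locus from these groups.

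Npr2 encodes natriuretic peptide receptor B, a membrane guanylyl cyclase that makes cyclic GMP when C-type natriuretic peptide binds, and that is best known for its role in the growth of long bones. Serpine2 encodes protease nexin-1, a secreted serpin that traps thrombin, urokinase and plasmin at the cell surface. Acpp encodes prostatic acid phosphatase, made in a secreted and a membrane-bound form, the latter of which can release adenosine from AMP outside the cell. Gm4756 is a predicted gene beside the short-chain dehydrogenase gene Dhrs7, and its function is not known.

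In the mouse build GRCm38, with the GENCODE M21 annotation, Npr2 (ENSMUSG00000028469) lies on the plus strand at chr4:43631935-43651244, and Serpine2 (ENSMUSG00000026249) on the minus strand at chr1:79794197-79861180. Acpp (ENSMUSG00000032561) lies on the minus strand at chr9:104288251-104337748 and Gm4756 (ENSMUSG00000109482) on the minus strand at chr12:72576002-72649661. GENCODE lists all 4 as protein coding, whereas RefSeq lists Gm4756 as a pseudogene. The longest annotated proteins of Npr2, Acpp and Gm4756 were compared with those of all other genes to find the nearest relative. Npr2 (1047 residues) was 62.3% identical to Npr1 over 1031 aligned residues, and Acpp (417 residues) was 50.8% identical to Acp2 over 374. The Gm4756 protein (335 residues) was 60.3% identical to Dhrs7 over 330.

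The 169 bases from 200 to 32 bases before the RefSeq start of transcription are shown for the 3 genes with an entry, since they are the sequence just before the RefSeq first exon of genes whose RNA differed with age in Titan liver (RefSeq, GRCm38.p6, each written 5′ to 3′ on the gene's own strand). The windows are chr4:43631735-43631903 for Npr2, chr1:79858697-79858865 for Serpine2 and chr9:104337754-104337922 for Acpp. A longer GENCODE transcript of Serpine2 starts further upstream, so the Serpine2 window lies inside the gene as annotated above, in an intron of that transcript. Capitals mark GC boxes, GGGCGG on either strand.
Npr2: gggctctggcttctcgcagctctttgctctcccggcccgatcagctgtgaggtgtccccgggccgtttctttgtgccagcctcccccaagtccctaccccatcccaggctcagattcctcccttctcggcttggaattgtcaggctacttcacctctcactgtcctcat
Serpine2: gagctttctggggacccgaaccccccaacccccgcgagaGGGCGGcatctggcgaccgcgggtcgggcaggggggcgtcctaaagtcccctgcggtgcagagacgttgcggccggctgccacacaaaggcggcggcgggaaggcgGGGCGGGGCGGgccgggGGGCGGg
Acpp: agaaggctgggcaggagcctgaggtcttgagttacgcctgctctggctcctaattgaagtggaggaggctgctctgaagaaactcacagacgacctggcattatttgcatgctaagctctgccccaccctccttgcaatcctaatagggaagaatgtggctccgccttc
The Serpine2 window held 4 GC boxes, a pair of which overlap by a base, and was 76.9% G and C, a share higher than that of 96.6% of the 27025 promoter windows of the same length. Of those windows 26.4% held at least 1 GC box. The Npr2 window was 60.4% G and C and the Acpp window 53.8%, with a median of 52.7% over all windows, and neither held a GC box. The letters TTCNNNGAA (a STAT-type motif, in 4.79% of windows), ATTGAT (an HNF6-type motif, 4.81%) and CACGTG (an E box, 4.22%) were searched on both strands and were in none of the 3 windows, which says nothing about the binding of the factors.

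Each library held between 6794935 and 23295028 reads assigned to genes. Hepatocyte markers had group medians of their summed level between 81049 and 93322 CPM (counts per 1000000 reads, scaled between libraries), and 10 of 12 markers of non-liver tissues had at most 3 reads in every mouse. The others, Vil1 and Fabp2, did not stay that low. The summed level of the 12 had group medians between 58.6 CPM in old control and 106 CPM in young Titan liver. Reads fell on the strand of the RNA in 96.8% to 97.5% of cases. Opposite-strand reads over Npr2, where the antisense gene Gm12473 lies, made up 0.633% of reads there, and those over Gm4756 0.0737%, while Serpine2 and Acpp had 0. Nothing in the labels says whether the 5 mice of a group came from separate litters, and p-values measure the spread between these mice.

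In Npr2, Titan liver held the lowest level of the 4 groups at 11 weeks and the highest at 19-21 weeks. The 5 Titan mice of 11 weeks had 13, 18.2, 20.1, 20.2 and 21.0 CPM of Npr2 (mean 18.5 ± 3.24, SD, n = 5). The 5 Titan mice of 19-21 weeks had 43.1, 44.1, 45.7, 53.1 and 58.6 CPM (48.9 ± 6.68). The lowest older mouse stood 2.06-fold above the highest younger one, and the fitted difference was 1.40 on the log2 scale (SE 0.139), or 2.64-fold higher at 19-21 weeks. Control liver lay between these levels at both ages. Npr2 was at 20.3, 23.5, 25.9, 27.9 and 32.9 CPM in control mice of 11 weeks (26.1 ± 4.72) and at 31.1, 33.2, 33.3, 40.0 and 42.4 CPM in control mice of 19-21 weeks (36.0 ± 4.90). In order of the group means, neighbouring groups overlapped between young Titan and young control and between young and old control. Old Titan lay above old control without overlap, but by 1.02-fold between the nearest mice.

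Serpine2 was low in 3 of the groups and high in Titan liver at 19-21 weeks. It had 2.90, 3.67, 4.27, 4.96 and 6.25 CPM in Titan mice of 11 weeks (4.41 ± 1.28). Titan mice of 19-21 weeks had 21.6, 25.9, 28.0, 31.0 and 42.3 CPM of Serpine2 (29.7 ± 7.80). The nearest mice of these groups were 3.45-fold apart, and the fitted difference was 2.77 (SE 0.426, log2), or 6.84-fold. Control mice of 11 weeks had 3.86, 4.0, 8.35, 8.67 and 10 CPM (6.98 ± 2.85). Control mice of 19-21 weeks had 2.90, 3.02, 7.38, 8.89 and 21.8 CPM of Serpine2 (8.79 ± 7.71), and the last of these, replicate 2, alone reached the range of the older Titan mice. The 3 low groups overlapped each other, and 4 of the 5 older Titan mice lay above every older control mouse.

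Acpp was close to absent from control liver and present in every Titan mouse. Control mice had 0 or 1 read at 11 weeks and 0 to 2 reads at 19-21 weeks, that is 1 and 5 reads summed over 5 libraries. Titan mice of 11 weeks had 12.1, 18.8, 27.3, 28.7 and 30.1 CPM of Acpp (23.4 ± 7.70), from 122 to 717 reads each. Titan mice of 19-21 weeks had 3.96, 4.49, 6.35, 6.56 and 7.99 CPM of Acpp (5.87 ± 1.64), from 33 to 94 reads each. The level in Titan liver fell by 1.99 on the log2 scale (SE 0.253), a 3.98-fold difference, and the nearest mice were 1.52-fold apart. With the controls set at 3 reads per library, Acpp in Titan liver was at least 112-fold higher at 11 weeks and at least 22.0-fold higher at 19-21 weeks. No fold with age is given for the controls, since both groups were at or under 3 reads in every mouse, a level that equals 0.208 CPM at 11 weeks and 0.267 CPM at 19-21 weeks on average.

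Gm4756 rose with age in Titan liver while it stayed below the controls of the same age. It had 42.5, 43.3, 52.3, 60.0 and 61.7 CPM in Titan mice of 11 weeks (52.0 ± 8.99). Titan mice of 19-21 weeks had 72.2, 77.1, 87.4, 105 and 107 CPM of Gm4756 (89.7 ± 15.9). The fitted difference was 0.79 (SE 0.117, log2), or 1.73-fold, and the nearest mice were 1.17-fold apart, the narrowest gap of the 4 genes. Control mice of 11 weeks had 87.9, 97.3, 100.2, 100.6 and 100.9 CPM of Gm4756 (97.4 ± 5.48), and those of 19-21 weeks had 111.9, 112.0, 123.7, 129.3 and 132.3 CPM (121.8 ± 9.54). Young Titan and old control mice thus stood apart from the other groups at the low and the high end, while old Titan and young control mice overlapped. Spread between mice was wider in Titan liver, with a coefficient of variation of 17.3% and 17.7% against 5.63% and 7.83% in control liver.

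**Figure D1:**
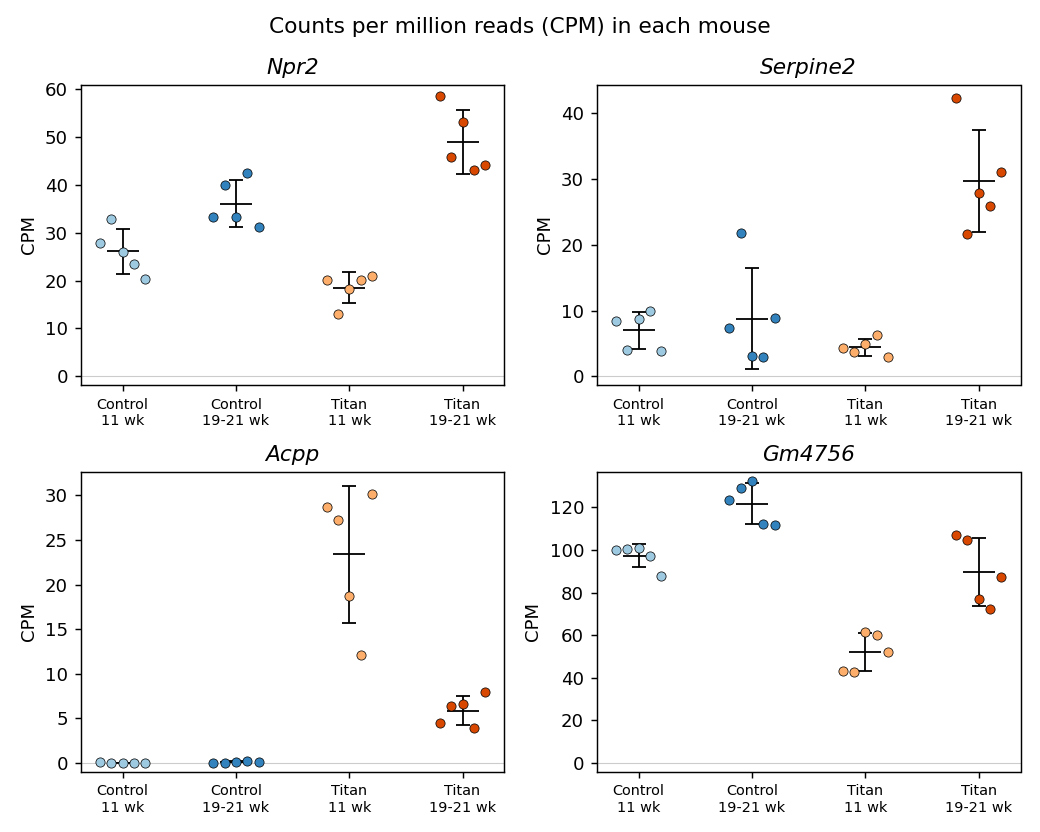
Level of each gene in CPM (linear axis) in every mouse, by line and age; points are mice and the bar and whiskers are the mean and SD of 5 mice. Npr2, Serpine2 and Gm4756 were higher and Acpp lower at 19-21 weeks than at 11 weeks in Titan liver without overlap, and Acpp was at 0 to 2 reads in all control mice.

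The Titan age difference selected the 4 genes, so its values are given as a description with no test. Of the 13784 genes, 1.25% passed an adjusted p of 0.05 for this difference in edgeR's quasi-likelihood fit, 2.97% did not overlap between the 2 ages, and 101 genes (0.733%) did both. Among the 42 of these that were higher at 19-21 weeks, Npr2, Gm4756 and Serpine2 held the first to the third rank by p, and Acpp held the first of the 59 that were lower. These ranks come from the difference that chose the 4 genes, so they describe the choice and give it no support. Next in rank stood Nox4 on the higher side (log2 fold change 1.30, nearest mice 1.09-fold apart) and Pnpla3 on the lower side (-4.01, 4.91-fold apart), named here only because they follow the 4 genes. Fewer cells of a type and less RNA per cell cannot be told apart in bulk liver.

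Measures of tissue and library moved with age in Titan liver too. The summed level of 9 pericentral hepatocyte markers, genes of the hepatocytes around the central vein, was 2446 to 3982 CPM in Titan mice of 11 weeks and 4204 to 6032 CPM in those of 19-21 weeks, without overlap. In control liver it was 4005 to 5602 CPM at 11 weeks and 4486 to 5691 CPM at 19-21 weeks. Of these 9 markers 2 rose with age in Titan liver, Cyp2e1 (log2 fold change 0.92, edgeR adjusted p = 0.0066) and the glutamate transporter gene Slc1a2 (1.21, adjusted p = 0.037), and 0 fell. The median of the 9 was 0.59. A sum of CPM weighs abundant markers most, and Cyp2e1, with its nearest mice 1.06-fold apart, itself met the rule that chose the 4 genes. Averaged over ages 4 of the 9 were lower in Titan liver and 0 higher. The summed levels of the stellate, endothelial, Kupffer cell, lymphocyte, cholangiocyte, erythroid and periportal lists overlapped between the 2 ages. The part of the pericentral genes in the result was not tested. The share of mapped reads outside genes was 18.4% to 34.7% (median 23.5%) in Titan mice of 11 weeks and 25.2% to 42% (median 28.7%) in those of 19-21 weeks. With that share in the model, an alternative added after the data were seen, the Titan age differences were 1.33 for Npr2, 2.81 for Serpine2, -1.94 for Acpp and 0.83 for Gm4756 on the log2 scale.

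The difference between the lines, averaged over both ages, is a contrast that the choice of genes did not use, although the choice favoured genes with little spread within the Titan groups. Acpp was at least 49.6-fold higher in Titan liver, given as a description with no test because only the Titan mice brought it past the filter on low counts. Of the other 3 genes 1 passed adjusted p 0.05, Gm4756, where 24% of all tested genes did. Gm4756 was lower in Titan liver by a log2 fold change of -0.67 (SE 0.082, 95% interval -0.85 to -0.50, edgeR adjusted p = 5.0e-06). Npr2 did not differ past the threshold, with a log2 difference of -0.03 (SE 0.097, interval -0.23 to 0.18, edgeR adjusted p = 0.88). Serpine2 had a log2 difference of 0.53 (SE 0.294, interval -0.08 to 1.14, edgeR adjusted p = 0.20). Without the older control mouse of replicate 2, which had the high Serpine2 level, the difference was 0.86 and the edgeR adjusted p 0.012, in a range of 0.012 to 0.31 over all alternatives.

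At each age the lines are set side by side as a description, since the Titan mice in these differences took part in the choice. At 11 weeks Npr2 was lower in Titan liver by a log2 fold change of -0.49 (SE 0.139) and at 19-21 weeks higher by 0.44 (SE 0.136). Serpine2 had values of -0.70 (SE 0.429) and 1.76 (SE 0.405) at the same ages. Npr2 and Serpine2 thus had opposite signs at the 2 ages, whereas Gm4756 was lower in Titan liver at both, by -0.91 (SE 0.117) and -0.44 (SE 0.116). At 11 weeks Gm4756 did not overlap between the lines, where 11.9% of tested genes did not. At 19-21 weeks Npr2 and Gm4756 did not, where 7.62% of tested genes did not. The nearest mice were then only 1.02-fold apart for Npr2 and 1.04-fold for Gm4756. Acpp did not overlap at either age, but is not set beside these shares, since it passed the filter only through Titan mice. The age difference in Titan minus that in control liver was 0.94 for Npr2 (SE 0.194), 2.45 for Serpine2 (SE 0.588) and 0.46 for Gm4756 (SE 0.164), on the log2 scale and untested.

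Age in control liver was tested for the 3 genes that were measurable there, and 0 of the 3 passed an adjusted p of 0.05 in edgeR or in DESeq2. Of all tested genes 0.0871% passed in edgeR. Npr2 was 0.46 higher on the log2 scale at 19-21 weeks (SE 0.137, interval 0.18 to 0.75, edgeR adjusted p = 0.45). Of the 5 older mice 4 lay above every younger one. Gm4756 was 0.32 higher (SE 0.115, interval 0.08 to 0.56, edgeR adjusted p = 0.59). All 5 older mice lay above the 5 younger ones, a separation seen in 1.02% of tested genes. Npr2 and Gm4756, 2 of the 3 genes, had an unadjusted p under 0.05, as did 6.16% of all tested genes. Serpine2 had a log2 difference of 0.32 (SE 0.413, interval -0.54 to 1.18, edgeR adjusted p = 0.97), which turned to -0.34 without the older mouse of replicate 2.

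**Figure D2:**
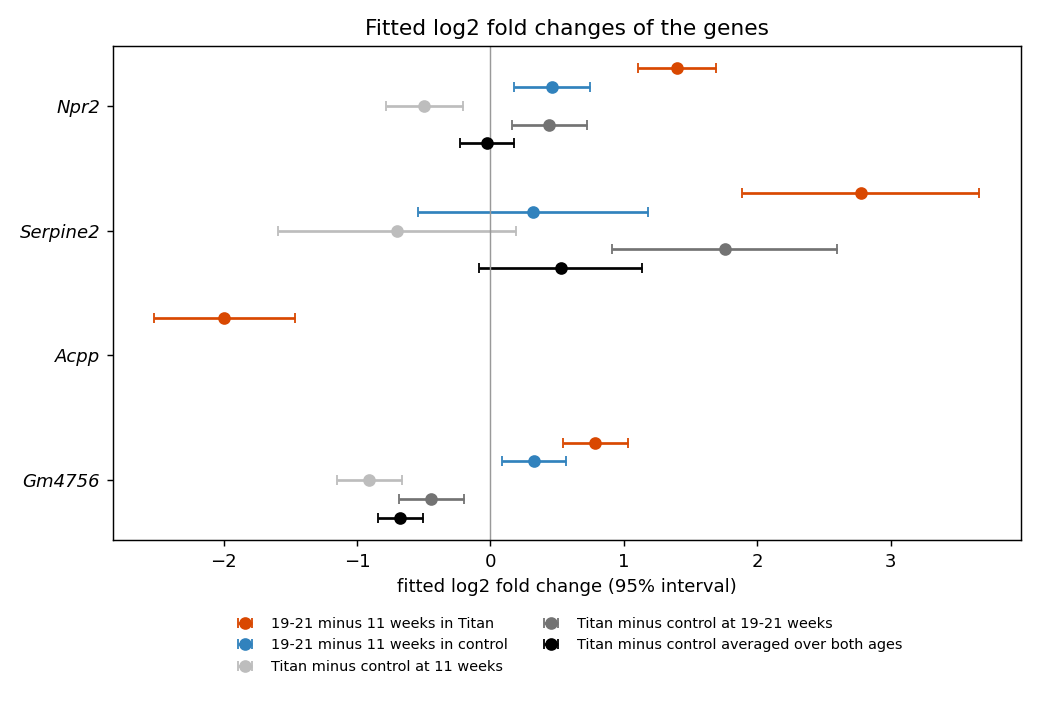
Fitted log2 fold changes (points) with 95% intervals (bars) for each gene and comparison. The orange points, the age difference in Titan liver that selected the genes, are 1.40, 2.77, -1.99 and 0.79 from top to bottom, and for Acpp no other value is drawn because control liver had at most 2 reads.

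Per kilobase of exon, Gm4756 had the highest level of the 4 genes in every group, from 15.3 ± 2.65 CPM per kilobase in young Titan to 35.9 ± 2.81 in old control (SD, n = 5). Its level was above that of 85.1% to 93.2% of tested genes. Npr2 was second by mean in every group, at 3.96 ± 0.695 CPM per kilobase in young Titan and 10.5 ± 1.43 in old Titan. In young Titan liver its range overlapped that of Acpp. The third place changed hands with age in Titan liver: Acpp had 3.19 ± 1.05 CPM per kilobase at 11 weeks against 0.532 ± 0.154 for Serpine2, whereas at 19-21 weeks Serpine2 had 3.59 ± 0.941 against 0.801 ± 0.224 for Acpp. Serpine2 moved from above 15.6% of tested genes to above 53.8%, and Acpp from above 51.1% to above 20.6%.

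Npr2 belongs to the natriuretic peptide receptors, and the other genes of that pathway are described by role. The ligand genes Nppa, Nppb and Nppc had at most 1 read in any mouse. Npr1, the guanylyl cyclase receptor of the atrial peptide, had an age difference in Titan liver of 0.14 (SE 0.099, log2, edgeR adjusted p = 0.53). Its means were 17.1 ± 0.549 and 15.4 ± 1.22 CPM in young and old control liver, and 15.2 ± 2.24 and 16.7 ± 1.65 CPM in young and old Titan liver. Npr3, the clearance receptor that removes the peptides and has no cyclase domain, was higher in Titan liver averaged over ages by 0.99 (SE 0.220, log2, edgeR adjusted p = 0.0023). Its age difference in Titan liver was 0.44 (SE 0.297, edgeR adjusted p = 0.51).

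Of 32 listed genes of natriuretic peptide and cyclic GMP signalling, 22 were tested. Between the lines 3 were higher in Titan liver and 3 lower (27.3% against 24% of all genes), with a median log2 fold change of -0.05 beside -0.003 for all genes. Those with the smallest p were Pde1b, which breaks down cyclic nucleotides (1.16, edgeR adjusted p = 0.00048), Npr3, the guanylyl cyclase gene Gucy2c (1.59, adjusted p = 0.0037) and Mme, the gene of neprilysin, which degrades natriuretic peptides (-1.82, adjusted p = 0.0066). With age in Titan liver 0 of the 22 passed in edgeR or DESeq2 and 1 had an unadjusted p under 0.05. The median was 0.08 beside 0.02 for all genes. With age in control liver 0 passed in either tool and 0 had an unadjusted p under 0.05.

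Serpine2 is one of the inhibitors of thrombin and of plasminogen activation. Of 34 listed genes of thrombin, plasminogen activation and their inhibitors, 27 were tested. Serpine3, of the same serpin subfamily, had 0 reads in every mouse. Between the lines 4 were higher in Titan liver and 10 lower (51.9% against 24% of all genes), with a median of -0.14. Among the lower ones were Serpind1, heparin cofactor II (-0.38, edgeR adjusted p = 2.6e-05), and F11, coagulation factor XI (-0.65, adjusted p = 0.00029). Higher in Titan liver were Lrpap1, the chaperone of the receptor that clears serpin complexes (0.39, adjusted p = 0.00028), and Serpini1, neuroserpin (1.37, adjusted p = 0.00050). With age in Titan liver 1 gene fell, Lrpap1 (-0.57, SE 0.097, edgeR adjusted p = 0.0070), and 0 rose. That is 3.70% against 1.25% of all genes, with a median of 0.03 beside 0.02 for all genes. For the same difference DESeq2 called 3 and 5 had an unadjusted p under 0.05, and edgeR called 2 without young Titan replicate 4. With age in control liver edgeR called 0, DESeq2 called 1 and 3 had an unadjusted p under 0.05.

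Acp2, the lysosomal acid phosphatase nearest to Acpp in sequence, was abundant in both lines, at 75.5 ± 9.80 and 78.4 ± 6.65 CPM in young and old control liver and 63.9 ± 5.70 and 66.9 ± 2.70 CPM in young and old Titan liver. It was lower in Titan liver averaged over ages by a log2 fold change of -0.24 (SE 0.061, edgeR adjusted p = 0.0076). Acp1, the low molecular weight phosphatase (-0.13, adjusted p = 0.38), Acp5, the tartrate-resistant form (-0.01, adjusted p = 0.96), and Acp6, which acts on lysophosphatidic acid (-0.11, adjusted p = 0.087), did not pass the test between the lines. Their age differences in Titan liver were between -0.11 and 0.03.

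Nt5e encodes CD73, the enzyme that makes adenosine from AMP at the cell surface, a step that membrane-bound Acpp can also carry out. Titan mice of 11 weeks had 63.8, 75.7, 124, 148 and 151 CPM of Nt5e, and those of 19-21 weeks had 20.7, 25.3, 37.1, 40.2 and 53.6 CPM. Control mice had 9.20 to 32.9 CPM at 11 weeks and 5.67 to 18.7 CPM at 19-21 weeks. Like Acpp, Nt5e was higher in Titan liver averaged over ages (log2 1.89, SE 0.242, edgeR adjusted p = 9.5e-06) and fell with age in Titan liver (-1.67, SE 0.332, edgeR adjusted p = 0.018). Unlike Acpp, it was measurable in control liver, where its age difference was -0.93 (SE 0.347, edgeR adjusted p = 0.64). The Titan age call was lost without young Titan replicate 1, 2 or 5 or old Titan replicate 1, at adjusted p from 0.055 to 0.072.

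Of 25 listed acid phosphatases and genes of extracellular nucleotide and adenosine handling, 20 were tested. Between the lines 2 were higher in Titan liver and 4 lower (30% against 24% of all genes), with a median of -0.01. Beside Nt5e these included Alpl, alkaline phosphatase (0.80, edgeR adjusted p = 0.00017), and the nucleotide pyrophosphatases Enpp1 (-0.73, adjusted p = 4.0e-06) and Enpp3 (-0.86, adjusted p = 9.7e-06). With age in Titan liver Enpp1 rose (0.57, SE 0.126, edgeR adjusted p = 0.031) and Nt5e fell, 10% against 1.25% of all genes, with a median of 0.03. That count of 2 became 0 without young Titan replicate 1, 2 or 5 or old Titan replicate 1, 1 without old Titan replicate 3, 4 or 5, and 3 without young Titan replicate 4. The call of Enpp1 was also lost with only the 10 Titan mice (edgeR adjusted p = 0.065) and with the share of reads outside genes in the model (0.061), within a range of 0.0051 to 0.12 over its alternatives. With age in control liver 0 passed in edgeR or DESeq2 and 2 had an unadjusted p under 0.05.

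Dhrs7, a dehydrogenase gene of the short-chain family that lies 0.692 kb from Gm4756 on the same strand, overlapped between all 4 groups. Its means were 19.6 ± 4.92 and 20.2 ± 2.45 CPM in young and old control liver and 24 ± 4.71 and 20 ± 1.85 CPM in young and old Titan liver. The difference between the lines was 0.14 (SE 0.106, log2, edgeR adjusted p = 0.37), and the age difference in Titan liver was -0.26 (SE 0.151, edgeR adjusted p = 0.42). Pcnx4, on the opposite strand, overlaps the end of Gm4756 and had a difference between the lines of -0.23 (SE 0.099, edgeR adjusted p = 0.098).

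**Figure D3:**
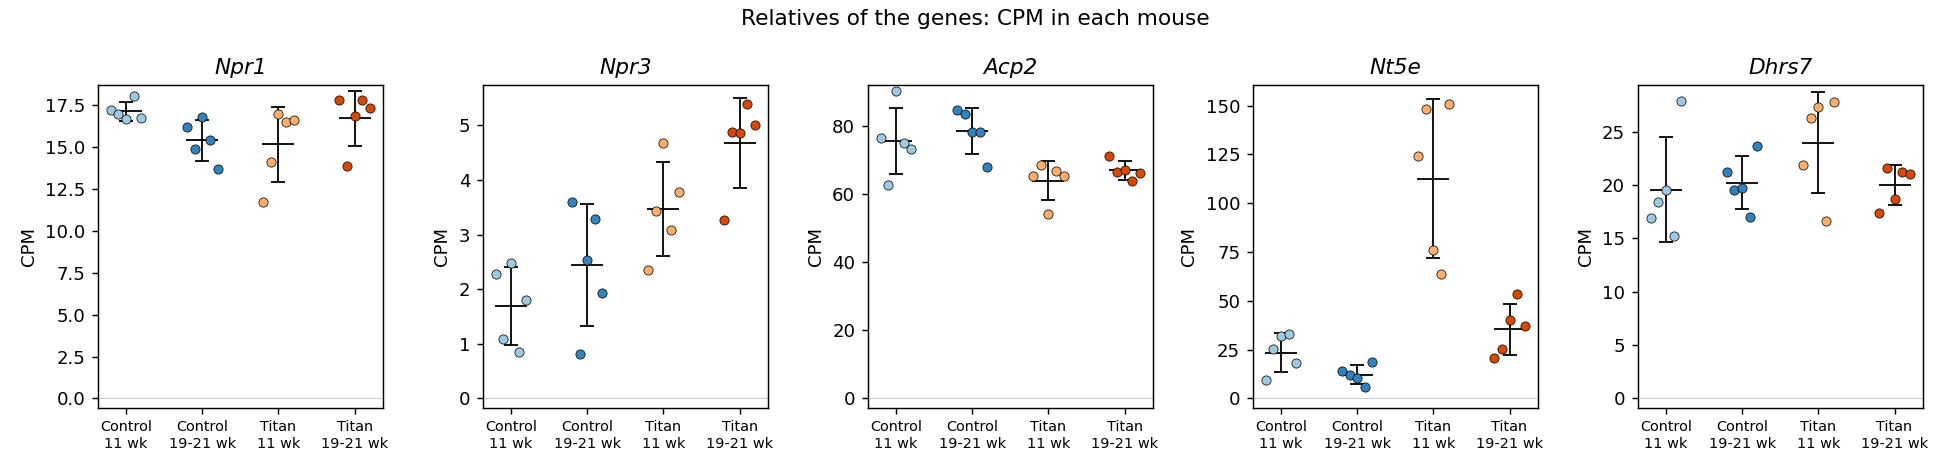
Level in CPM (linear axis) of 5 genes related by sequence or function in every mouse, by line and age; points are mice and the bar and whiskers are the mean and SD of 5 mice. Npr1, Acp2 and Dhrs7 overlapped between 11 and 19-21 weeks in Titan liver, whereas Nt5e was at 63.8 to 151 CPM in young and 20.7 to 53.6 CPM in old Titan mice.

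Genes near the 4 genes on the chromosome were compared between the lines over 500 kb on either side. Over the 4 genes 11 of 38 tested neighbours passed the threshold, 28.9% against 24% of all tested genes. Around Npr2, 4 of 18 tested neighbours were higher in Titan liver and 2 lower (33.3%). Those with the smallest p were the muscle-type tropomyosin gene Tpm2 (log2 2.70, edgeR adjusted p = 3.1e-07), the synaptic vesicle priming gene Unc13b (2.52, adjusted p = 3.1e-07), Rusc2 (-0.96, adjusted p = 3.4e-07), the phospholipid flippase gene Atp8b5 (-2.43, adjusted p = 4.3e-06) and the kinase gene Tesk1 (0.54, adjusted p = 0.00026). All 5 lay 108 to 367 kb on the lower-coordinate side, and Npr2 itself did not differ between the lines averaged over ages. Around Serpine2, Wdfy1 was higher (0.21, adjusted p = 0.0062) among 6 tested neighbours. Around Acpp, the chemokine receptor gene Ackr4 (-0.89, adjusted p = 0.0019) and the endosomal gene Dnajc13 (-0.16, adjusted p = 0.015) were lower among 7, but Ackr4 had 19 reads at most in a mouse and turned to 0.15 when both strands were counted. Around Gm4756, Jkamp (-0.28, adjusted p = 0.0078) and Mnat1 (-0.34, adjusted p = 0.013) were lower among 7.

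With age in Titan liver 2 of the 38 neighbours changed, 5.26% against 1.25% of all tested genes. Near Npr2 1 of 18 rose, Gne, the first enzyme of sialic acid synthesis (log2 0.45, edgeR adjusted p = 0.035), as did 1 of the 6 near Serpine2, the predicted transcript Gm37902 (0.92, adjusted p = 0.0088). Both were chosen for mention after their values were seen. The call of Gne was lost in 11 of 29 alternatives, among them the fits with no filter, with only the 10 Titan mice and without young Titan replicate 1, 2 or 5 or old Titan replicate 1, 2, 3 or 5, with edgeR adjusted p up to 0.14. Near Acpp edgeR and DESeq2 called 0 of 7, with 1 at an unadjusted p under 0.05, and near Gm4756 0 of 7, with 0 at that p.

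**Figure D4:**
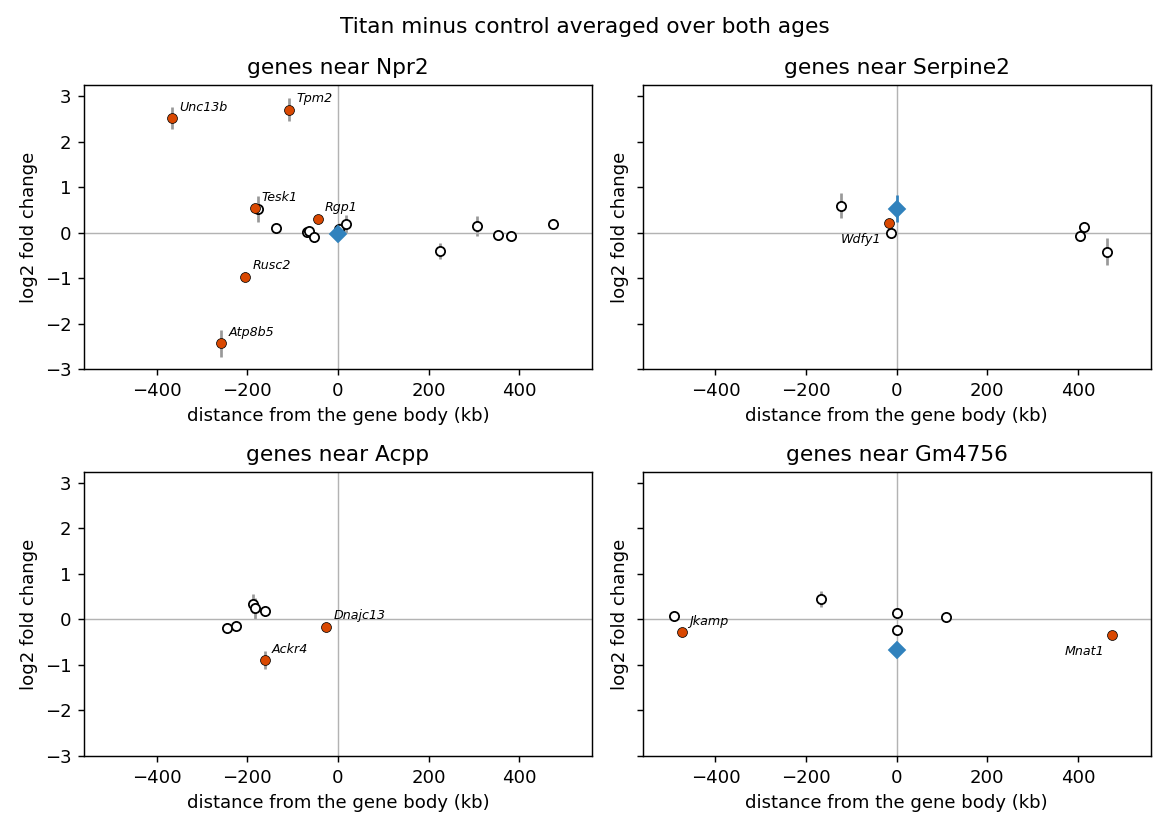
Log2 fold change of Titan minus control averaged over both ages (points, with SE bars) for tested genes within 500 kb of each gene, against the distance in kb between gene bodies, with lower coordinates to the left. Filled circles passed adjusted p 0.05, open circles did not, and diamonds are the gene itself; Acpp is not drawn because control liver had at most 2 reads.

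Genes with the pattern most like each of the 4 over the 20 mice are given by Pearson's r of log2 CPM, as a description. The points share lines and ages, so r holds differences between the groups as well as those between mice. Npr2 was closest to Gne (r = 0.81), the polycystin gene Pkd1 (0.80), Zkscan3 (0.79), Gm45555 (0.79) and Plekhg3 (0.79). The lowest r with Npr2 were those of Fth1, ferritin heavy chain (-0.89), Ywhae (-0.85) and Ndufab1 (-0.82). Gne is the same gene that lies 383 kb from Npr2, and with deviations from the 4 group means its r was 0.61. By that measure r with Npr2 was -0.75 for Ywhae and -0.71 for Fth1. These genes, Gne among them, were chosen by r over all mice, which also favours a large r by deviations.

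Serpine2 was closest to the ubiquitin ligase gene Rnf31 (0.87), 4732471J01Rik (0.86), Rhobtb2 (0.80), Dmac2 (0.79) and the adhesion molecule gene Icam1 (0.78), and lowest with Ccdc90b (-0.85), Apool (-0.83) and Slc17a4 (-0.82). With deviations from the group means r with Serpine2 was 0.65 for Rnf31, 0.64 for Icam1, -0.74 for Ccdc90b and -0.70 for Apool. Acpp was closest to Vcp (0.96), the globin gene Hba-a2 (0.95), Hsp25-ps1 (0.95), the folate enzyme gene Mthfd1l (0.94) and Cep83os (0.94), and lowest with Vcp-rs (-0.96), Gm6916 (-0.96) and the carboxylesterase gene Ces2a (-0.95). With deviations from the group means, r of these 8 genes with Acpp was between -0.25 and 0.56. These values include the control mice, where Acpp had at most 2 reads. Reads of Vcp and Vcp-rs, of Hba-a2 and of Hsp25-ps1 can be shared with near-identical copies, so their levels are uncertain.

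Gm4756 was closest to the hydroxysteroid dehydrogenase gene Akr1c6 (0.91), Cela1 (0.91), Nrn1 (0.90), the desmoglein gene Dsg1c (0.88) and Map2k6 (0.88), and lowest with Gm30692 (-0.93), Morc4 (-0.92) and the glycine transporter gene Slc6a9 (-0.92). With deviations from the group means r was 0.83 for Akr1c6, 0.78 for Nrn1, 0.74 for Cela1 and -0.85 for Slc6a9. For Npr2, Serpine2 and Acpp 0 of the 5 closest genes over all mice were among the 5 closest by deviations.

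Pearson's r among the 4 genes is given as a description. Over all mice it contains the Titan age difference that chose the genes, so its sign there was partly set by the choice. Over 20 mice r was 0.71 between Npr2 and Serpine2, 0.64 between Npr2 and Gm4756 and -0.81 between Acpp and Gm4756. With the group means taken out these became 0.09, 0.38 and -0.33, and the lowest was -0.53 between Serpine2 and Acpp. The values with Acpp include the control mice, where it had 0 to 2 reads, so they rest in part on deviations at the floor.

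Liver genes known to differ between the sexes were counted as well, in lists made of textbook examples. Of 23 tested genes known to be higher in male mice, 14 were lower and 1 higher in Titan liver averaged over ages (65.2% against 24% of all genes, median log2 fold change -0.69). With age in Titan liver 3 of them rose and 0 fell (13.04% against 1.25% of all genes). The median was 0.34 beside 0.02 for all genes. With age in control liver edgeR called 1 of the 23 (4.35% against 0.0871% of all genes). For the same difference DESeq2 called 2, and 7 had an unadjusted p under 0.05. Of 17 tested genes known to be higher in female mice, 10 were higher and 1 lower in Titan liver (64.7%, median 1.42), and with age in Titan liver 5 fell and 0 rose (29.4% against 1.25%, median -0.89). With age in control liver edgeR called 0 of the 17 and DESeq2 1, with 4 at an unadjusted p under 0.05. Without single mice the Titan age count of the male list was 1 (young Titan replicate 1, 2 or 5 or old Titan replicate 1) and 8 (young Titan replicate 4). That of the female list was 1 (young Titan replicate 2 or old Titan replicate 1), 3 (young Titan replicate 1 or 5) and 8 (young control replicate 1).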

How the data were processed

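RNA of 20 male mouse livers, 5 in each of 4 groups, was depleted of rRNA and sequenced as stranded libraries. The authors aligned the reads with STAR 2.5.3a to GRCm38 and deposited read counts per gene and strand for each mouse, of which the column for the strand of the RNA was used. Lines that name no gene, with 43.4% to 58.3% of the reads of a library, were left out of library sizes, as were 1562 Y-chromosome and 109 histone genes. Symbols came from GENCODE M21.

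Counts were filtered with filterByExpr (minimum count 10), scaled by TMM and fitted over the 4 groups with edgeR 4.0.16 in R 4.3.3 (quasi-likelihood test, Benjamini-Hochberg adjustment over 13784 genes, threshold 0.05). CPM uses the scaled library sizes, and correlations use log2 CPM with a prior count of 2. Intervals are at 95%. Levels at or under 3 reads per library were replaced by 3 reads to give lower bounds of fold changes. DESeq2 1.42.0 and BLAST 2.17.0 (relatives) were also used, and the fit was tested on simulated data. Mice with the same replicate number were compared by Pearson's r of their deviations from the group means. Alternatives covered the tool, scaling, filter, strand, genes kept, replicate block, mice in the fit and each mouse left out.

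The 4 genes and the gene lists were chosen with earlier results of these data known. The choice used the Titan age difference, so Npr2, Serpine2 and Gm4756 were tested only for the line averaged over ages and for age in controls, and Acpp, which passed the filter only through Titan mice, was not tested. Named besides them are the 5 genes with the highest and the 3 with the lowest r, up to 5 neighbours within 500 kb past the threshold between the lines, up to 4 genes per list past the threshold, direct ligands and sister genes, and the nearest relatives, of which 1 gene is not reported here. The sex-related lists were counted only.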

Additional observations from a re-analysis of the deposited data

Results flagged for a closer look

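In Gm4756 the young control mouse of replicate 5 had 87.9 CPM, apart from the other 4 mice of its group, of which the nearest had 97.3 CPM. The gap was 0.719 of the range of the group, above the Dixon critical value of 0.71 for 5 mice. Of 14 groups checked this was the only one past that value, and chance gives about 1 in 20.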

How the results depend on the processing

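Of 171 alternative values of the 6 tested results on Npr2, Serpine2 and Gm4756, 166 kept their direction and side of the threshold, 1 passed it and 4 turned sign. All 452 alternative values of the described differences of the 4 genes kept their direction, but for many of them this was fixed in advance. The choice of genes without overlap largely set the sign of the Titan age differences. The lower bounds of Acpp use a floor of 3 reads per library and do not respond to terms added to the fit. The Npr2 line difference, near 0, turned to 0.0049 without old control replicate 4, 0.021 without young control replicate 2 and 0.025 without young Titan replicate 2 (range -0.065 to 0.025 without single mice). Without single mice the Serpine2 line difference ranged from 0.41 to 0.86, and its age difference in control liver from -0.34 to 0.56, the extremes 0.86 and -0.34 both without old control replicate 2. The number of genes past the threshold with age in control liver was 12, against 51 in DESeq2, 25 with no filter, 4 with only the 10 control mice and 5 to 17 without single mice (5 and 6 without young control replicates 3 and 4, 7 without young Titan replicate 4 or old Titan replicate 3). With age in Titan liver it was 172, against 425 in DESeq2, 71 with only Titan mice, and, among alternatives added after the data were seen, 73 with the share of reads outside genes. Without single mice it ranged from 35 to 415: 43, 35 and 47 without young Titan replicates 1, 2 and 5, 45, 103 and 111 without old Titan replicates 1, 3 and 5, and 415 without young Titan replicate 4. Counted over both strands, another added alternative for genes outside the 4, Ackr4 turned to 0.15. With deviations from the group means, r with Acpp turned to -0.13 for Hba-a2, -0.032 for Hsp25-ps1, 0.14 for Vcp-rs and 0.062 for Gm6916. The cause of these changes was not tested. For the other named genes, 2062 of 2169 alternative values kept direction and side of the threshold, 106 lost the call and 1 turned sign.

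Replicate numbers are shared between groups, but same-numbered mice did not deviate together in log2 CPM (r -0.14 to 0.18 over 30 pairs, 4 above 0.1). For different-numbered mice r was -0.18 to 0.19 over 120 pairs, 13 of them above 0.1. The share of mapped reads outside genes was above the group median in replicate 4 of every group. It was 38.2% and 41.2% in young and old control and 29.8% and 35.1% in young and old Titan mice. With a replicate block the line differences were -0.02 for Npr2, 0.56 for Serpine2 (edgeR adjusted p = 0.22) and -0.67 for Gm4756 (edgeR adjusted p = 4.9e-05), and 3119 genes passed between the lines, 8 with age in control and 85 with age in Titan liver, where Gne (edgeR adjusted p = 0.072) and Enpp1 (0.065) lost their calls. Depth limits Acpp in control liver, where 0 to 2 reads per mouse give lower bounds only.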
